A study of Mus musculus with 9 samples.

Results

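The genes described here are those of the proteasome, taken as every gene of the day 3 count table whose symbol begins with Psma, Psmb, Psmc, Psmd, Psme, Psmf or Psmg followed by a number. This rule found 52 of the 24062 named genes. Among them 5 inducible genes, Psmb8, Psmb9, Psmb10, Psme1 and Psme2, were set beside 43 constitutive members, and 48 of the 52 genes passed the low-count filter (a CPM, the count relative to the library total, above 10 in at least 1 library). The other 4, Psma8, Psmb11, Psmb6-ps and Psmb6-ps2, had at most 1 count in any library. Psma8 and Psmb11 are tissue-restricted core subunits and were counted among the 43. The pattern also picks up Psmc3ip, which is named after a proteasome ATPase but acts in meiotic recombination, and Psme2b, an intronless copy of Psme2 whose reads may be shared with it. Both, with the pseudogenes Psmb6-ps and Psmb6-ps2, were kept apart from the 2 sets.

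The proteasome degrades ubiquitin-tagged proteins inside a barrel of stacked α and β rings, the core particle, which is opened by caps: the regulatory particle with its ATPase ring, or the activator PA28. Only the β1, β2 and β5 subunits cut peptide bonds, and in lymphocytes, and in other cells exposed to interferon γ, they are exchanged for the inducible subunits β1i, β2i and β5i to form the immunoproteasome. With PA28, the immunoproteasome is best known for making peptides that fit MHC class I molecules, and in T cells it also takes part in cytokine production and differentiation.

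The data are 9 bulk 3′ RNA-seq libraries (MARS-seq) of mouse spleen CD4 T cells, 3 per population. Naive cells came from male F1 mice, 6 to 10 weeks old, of a transgenic GFP reporter line crossed to a Foxp3-IRES-mRFP knock-in line, so all 3 populations carried both reporters in one dose, and were activated with anti-CD3/anti-CD28 beads for 72 h. DP cells (positive for both the GFP and the Foxp3 reporter) and SPR cells (GFP+ alone) were sorted from the same Th17 culture condition (TGFβ at 5 ng/ml with IL6 at 20 ng/ml). SPF cells (Foxp3+ alone) were sorted from a Treg culture (TGFβ at 10 ng/ml with IL2 at 5 ng/ml). In every comparison with SPF the sort, the TGFβ dose and the added IL6 or IL2 differed together and cannot be told apart, and both such comparisons share the SPF libraries. Libraries are called by population and B number (1 to 3). The labels call them biological replicates without saying which mice each came from.

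Library totals were between 1495152 and 3759662 counts, of which the 52 genes took 0.646 to 0.852%. Foxp3 followed the labels, with 129.99, 77.2 and 93.6 CPM in DP, 7.33, 7.32 and 6.38 CPM in SPR and 232, 244 and 209 CPM in SPF. The 9 T cell markers summed to 6601, 6223 and 7542 CPM in DP, 7504, 6523 and 7569 CPM in SPR and 10007, 10242 and 8123 CPM in SPF. Their sum was thus higher in every SPF library, while 1 of 9 had a positive fold change in DP over SPF and 3 of 9 in SPR over SPF. Against SPF, 3 of 9 were called lower in DP (6.18% of all genes) and 2 of 9 in SPR (7.58% of all genes). Of 14 B cell markers, Cd79a, Ms4a1, Pax5 and Ebf1 stayed under 1 CPM and Blk was at 0, but Cd79b had 3.37, 5.31 and 4.01 CPM in DP, 2.79, 3.01 and 6.12 CPM in SPR and 18.6, 26.1 and 13.5 CPM in SPF and was called lower in DP (adjusted p = 0.00847) and in SPR (adjusted p = 0.00509). H2-Ab1, an MHC class II gene of the same list, went the other way, with 128, 215 and 146 CPM in DP, 177, 313 and 228 CPM in SPR and 41.3, 41.9 and 74.4 CPM in SPF, and was called higher in DP (adjusted p = 0.00847) and in SPR (adjusted p = 0.00108). Of the 6 B cell markers tested, 5 had a negative and 1, H2-Ab1, a positive fold change in DP and in SPR over SPF. In each comparison 2 of the 6 were called lower (6.18% of all genes in DP, 7.58% in SPR). The 1 called higher stood against 7.55 and 9.14% of all genes. The summed B cell list, in which Ighm and H2-Ab1 were the largest, had 645, 441 and 451 CPM in DP, 595, 468 and 498 CPM in SPR and 1569, 1109 and 643 CPM in SPF. Of 12 myeloid markers, which summed to 81.2 to 185 CPM over the libraries and were mostly Cst3, Csf1r, Cd14 and Spi1 were at 0, and Itgam had at most 1.34 CPM in DP and SPR but 11.3, 4.19 and 3.25 CPM in SPF (called lower in both). CD8 and NK markers summed to 77.4, 86.6 and 80.3 CPM in DP, 72.2, 36.2 and 51.1 CPM in SPR and 74.9, 34.4 and 39.0 CPM in SPF. Single markers differed more than these sums. Of 5 tested, 2 were called higher in DP over SPF (7.55% of all genes). In SPR over SPF, 2 were called higher (9.14%) and 1 lower (7.58%). In DP over SPR, 2 were called higher with replicate number as a block (1.97%), and none without it. Erythroid markers summed to under 1 CPM in DP and SPR and to 0, 8.84 and 19.98 CPM in SPF. The part of these marker differences in the results below was not tested. Since these are bulk libraries, fewer cells with a transcript and less transcript per cell cannot be told apart in any result below.

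The 5 inducible genes lie on 3 chromosomes, and the bases around their RefSeq starts are shown because these genes moved together between libraries of one population, as described below. In GENCODE vM21 (GRCm38), Psmb8 (β5i) lies at chr17:34197721-34201454 on the plus strand and Psmb9 (β1i) at chr17:34181987-34187764 on the minus strand, both in the MHC class II region. Psmb10 (β2i) lies at chr8:105935735-105938444 on the minus strand. The PA28 subunits are near neighbours, Psme1 (PA28α) at chr14:55578123-55581529 on the plus strand and Psme2 (PA28β) at chr14:55587441-55591113 on the minus strand. The annotation places antisense or opposite-strand genes over part of Psmb8, Psmb9, Psmb10 and Psme1, and because no source used here gives the strand setting of the counting, reads of such partners cannot be told apart. Psmb9 overlaps Tap1, a transporter that carries peptides to MHC class I. The promoter windows of Psmb9 and Tap1, on opposite strands, share 275 of their 300 bases.

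The stretches below run from 250 bases before to 30 bases after the RefSeq start (GRCm38.p6), 5′ to 3′ on the strand of the gene. For Psme2, RefSeq gives 2 starts, whose windows share 220 bases, and the stretch of the more downstream start is shown. Psmb8 is chr17:34197945-34198224 (plus), Psmb9 is chr17:34187301-34187580 (minus), Psmb10 is chr8:105938363-105938642 (minus), Psme1 is chr14:55578244-55578523 (plus), Psme2 is chr14:55590992-55591271 (minus) and Psmb5, the constitutive counterpart of Psmb8, is chr14:54617966-54618245 (minus). The RefSeq starts lie downstream of the outermost GENCODE starts. The stretches of Psmb8, Psmb9 and Psme1 therefore lie wholly within the GENCODE spans of these genes. Those of Psmb10, Psme2 and Psmb5 lie partly within theirs, so these bases are not all upstream of the annotated genes. Capitals mark a match to one of 3 letter patterns: GAAA, 2 bases of any kind and GAAA again, the core of an interferon-stimulated response element, TTCNNNGAA, the core of a STAT site, and TGACNNNGC, the core of the element read by the NRF1 and NRF2 factors.
Psmb8: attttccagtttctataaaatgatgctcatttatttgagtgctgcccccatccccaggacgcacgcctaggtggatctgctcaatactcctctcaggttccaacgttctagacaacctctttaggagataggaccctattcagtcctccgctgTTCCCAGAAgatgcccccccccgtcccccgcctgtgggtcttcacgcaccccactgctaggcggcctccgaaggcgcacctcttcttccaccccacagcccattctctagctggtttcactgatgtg
Psmb9: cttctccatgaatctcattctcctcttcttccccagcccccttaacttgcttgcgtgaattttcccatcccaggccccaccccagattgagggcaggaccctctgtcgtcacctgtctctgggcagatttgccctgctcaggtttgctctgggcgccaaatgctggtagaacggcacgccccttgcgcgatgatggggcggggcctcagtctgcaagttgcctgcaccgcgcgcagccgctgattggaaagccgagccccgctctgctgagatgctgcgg
Psmb10: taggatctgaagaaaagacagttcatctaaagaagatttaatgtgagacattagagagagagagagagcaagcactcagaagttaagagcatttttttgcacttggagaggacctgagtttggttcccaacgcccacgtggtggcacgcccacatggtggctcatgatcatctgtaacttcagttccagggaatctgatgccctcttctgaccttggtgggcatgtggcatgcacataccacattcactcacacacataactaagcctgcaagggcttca
Psme1: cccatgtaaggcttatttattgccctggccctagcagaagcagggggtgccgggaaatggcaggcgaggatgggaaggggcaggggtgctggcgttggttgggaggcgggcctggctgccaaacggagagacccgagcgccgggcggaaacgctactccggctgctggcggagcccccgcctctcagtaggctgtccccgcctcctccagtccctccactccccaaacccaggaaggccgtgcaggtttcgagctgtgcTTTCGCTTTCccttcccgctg
Psme2: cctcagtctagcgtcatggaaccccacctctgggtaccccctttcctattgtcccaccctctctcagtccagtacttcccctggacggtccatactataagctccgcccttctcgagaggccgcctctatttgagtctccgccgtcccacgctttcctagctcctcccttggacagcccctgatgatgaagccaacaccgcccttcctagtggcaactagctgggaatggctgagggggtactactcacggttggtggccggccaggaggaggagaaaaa
Psmb5: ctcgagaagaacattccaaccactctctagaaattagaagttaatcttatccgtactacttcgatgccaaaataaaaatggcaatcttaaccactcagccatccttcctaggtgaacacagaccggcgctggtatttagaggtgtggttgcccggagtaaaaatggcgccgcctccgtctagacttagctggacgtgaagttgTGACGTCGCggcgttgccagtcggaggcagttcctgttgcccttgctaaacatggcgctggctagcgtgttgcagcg

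Both strands were searched over the full windows of 300 bases (250 before and 50 after each start), which the RefSeq table holds for 42 of the 52 genes, in 45 windows. The interferon pattern was found in 5 of the 45 windows (11.11%), those of Psme1, Psmb3, Psmd4, Psmd9 and Psmg4, against 3.44% of all 32851 windows. The STAT pattern was found in 3 of 45 (6.67%), those of Psmb8, Psmd2 and Psmg1, against 8.3% of all windows. The NRF pattern was found in 6 of 45 (13.33%), those of Psmb5, Psmb6, Psmc6, Psmd9, Psmd12 and Psme4, against 12.39% of all windows. In the capitals above, Psmb8 thus carries the STAT pattern, Psme1 the interferon pattern and Psmb5 the NRF pattern, while the stretches of Psmb9, Psmb10 and Psme2 hold none of these letters. The other Psme2 window held none of them either. Only Psmd9 held 2 of the patterns, and they did not overlap. A match describes the letters alone.

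The inducible genes had lower fitted levels in DP and SPR cells than in SPF cells, and none of them passed the test across the 9310 genes. Their log2 fold changes (edgeR, quasi-likelihood) had a median of -0.59 in DP over SPF and -0.56 in SPR over SPF, with 5 of 5 below 0 in each, against medians of 0.01 and 0.0010 over all 9310 genes tested. The constitutive catalytic subunits that they replace, Psmb5, Psmb6 and Psmb7, had medians of 0.20 and 0.06, with 3 of 3 above 0 in each. The size of the difference from SPF rested largely on one library, SPF replicate 1, as the values of each gene show.

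Psmb8, the β5i subunit with chymotrypsin-like activity, had 772, 620.3 and 761 CPM in DP, 828, 650.0 and 648 CPM in SPR, and 1268, 678 and 907 CPM in SPF. The SPF range overlapped those of DP and SPR. The log2 fold change was -0.47 ± 0.22 (SE, 95% interval -0.96 to 0.01, edgeR adjusted p = 0.176) in DP over SPF and -0.44 ± 0.22 (-0.93 to 0.04, adjusted p = 0.191) in SPR over SPF. Psmb9, the β1i subunit, had 215, 125 and 124 CPM in DP, 227, 154 and 142 CPM in SPR, and 449.6, 133 and 214 CPM in SPF. Within each population replicate 1 was the highest, and SPF replicate 2 lay below SPR replicates 1 to 3. Its log2 fold change was -0.84 ± 0.39 (-1.69 to 0.01, adjusted p = 0.170) in DP over SPF and -0.62 ± 0.38 (-1.46 to 0.22, adjusted p = 0.293) in SPR over SPF. Without the low-count filter Psmb9 was called lower in DP (-0.83, adjusted p = 0.00266) and in SPR (-0.61, adjusted p = 0.0414), and over all 18 alternatives its adjusted p ran from 0.00266 to 0.645 in DP and from 0.0414 to 0.963 in SPR.

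Psmb10, the β2i subunit, had 132, 107 and 150.5 CPM in DP, 160.2, 77.0 and 129 CPM in SPR, and 406, 165 and 154 CPM in SPF. The 3 DP values lay below the 3 SPF values by a narrow margin, while SPR replicate 1 lay above SPF replicate 3. Psmb10 had the largest drop among the inducible genes, -0.96 ± 0.37 (-1.78 to -0.14, adjusted p = 0.110) in DP over SPF and -0.99 ± 0.37 (-1.81 to -0.18, adjusted p = 0.0905) in SPR over SPF. DESeq2 called it lower in SPR than in SPF (log2 fold change -1.01, adjusted p = 0.040). Over the 18 alternatives its adjusted p ran from 0.000141 to 0.374 in SPR over SPF, with 4 of them past the threshold, and from 0.000328 to 0.521 in DP over SPF, with 2 past it.

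Psme1, the α subunit of the PA28 activator, had 521, 454 and 540.4 CPM in DP, 669.6, 442 and 469 CPM in SPR, and 1056, 619 and 508 CPM in SPF. Psme2, the β subunit of the same ring, had 321, 274 and 277 CPM in DP, 267, 221 and 257 CPM in SPR, and 551, 243 and 297 CPM in SPF. In both genes the SPF libraries other than replicate 1 overlapped the DP values. The fold change of Psme1 was -0.59 ± 0.26 (-1.17 to -0.01, adjusted p = 0.157) in DP over SPF and -0.48 ± 0.26 (-1.06 to 0.10, adjusted p = 0.230) in SPR over SPF. That of Psme2 was -0.39 ± 0.26 (-0.96 to 0.18, adjusted p = 0.331) in DP over SPF and -0.56 ± 0.26 (-1.13 to 0.01, adjusted p = 0.159) in SPR over SPF. The Psme2 copy Psme2b, which cannot be separated from Psme2 here, had 49.6, 34.7 and 32.8 CPM in DP, 23.4, 28.0 and 39.9 CPM in SPR and 103, 46.1 and 42.3 CPM in SPF, and its fold change of -1.07 in SPR over SPF had an adjusted p of 0.0536.

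The constitutive catalytic subunits were not lower on average in DP or SPR than in SPF. Psmb5 (β5) had 41.2, 89.5 and 54.2 CPM in DP, 45.4, 43.5 and 36.7 CPM in SPR, and 54.4, 27.9 and 40.0 CPM in SPF. Psmb6 (β1) had 176, 210.0 and 247 CPM in DP, 192, 186 and 188 CPM in SPR, and 146, 173 and 206 CPM in SPF. Psmb7 (β2) had 70.3, 74.0 and 49.5 CPM in DP, 54.4, 52.9 and 66.2 CPM in SPR, and 36.3, 52.1 and 76.7 CPM in SPF. In all 3 genes the 3 populations overlapped. For Psmb5, SPF replicate 1 was the highest of its population, as it was for the inducible genes, and so was SPR replicate 1, while for Psmb6 and Psmb7 the SPF library with the most counts of the inducible genes, replicate 1, was the lowest of its population. The log2 fold changes in DP over SPF were 0.53 (-0.12 to 1.19) for Psmb5, 0.20 (-0.22 to 0.62) for Psmb6 and 0.16 (-0.41 to 0.74) for Psmb7. In SPR over SPF they were 0.02 (-0.64 to 0.67), 0.09 (-0.33 to 0.51) and 0.06 (-0.51 to 0.63), and none of the 6 passed the test.

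**Figure D1:**
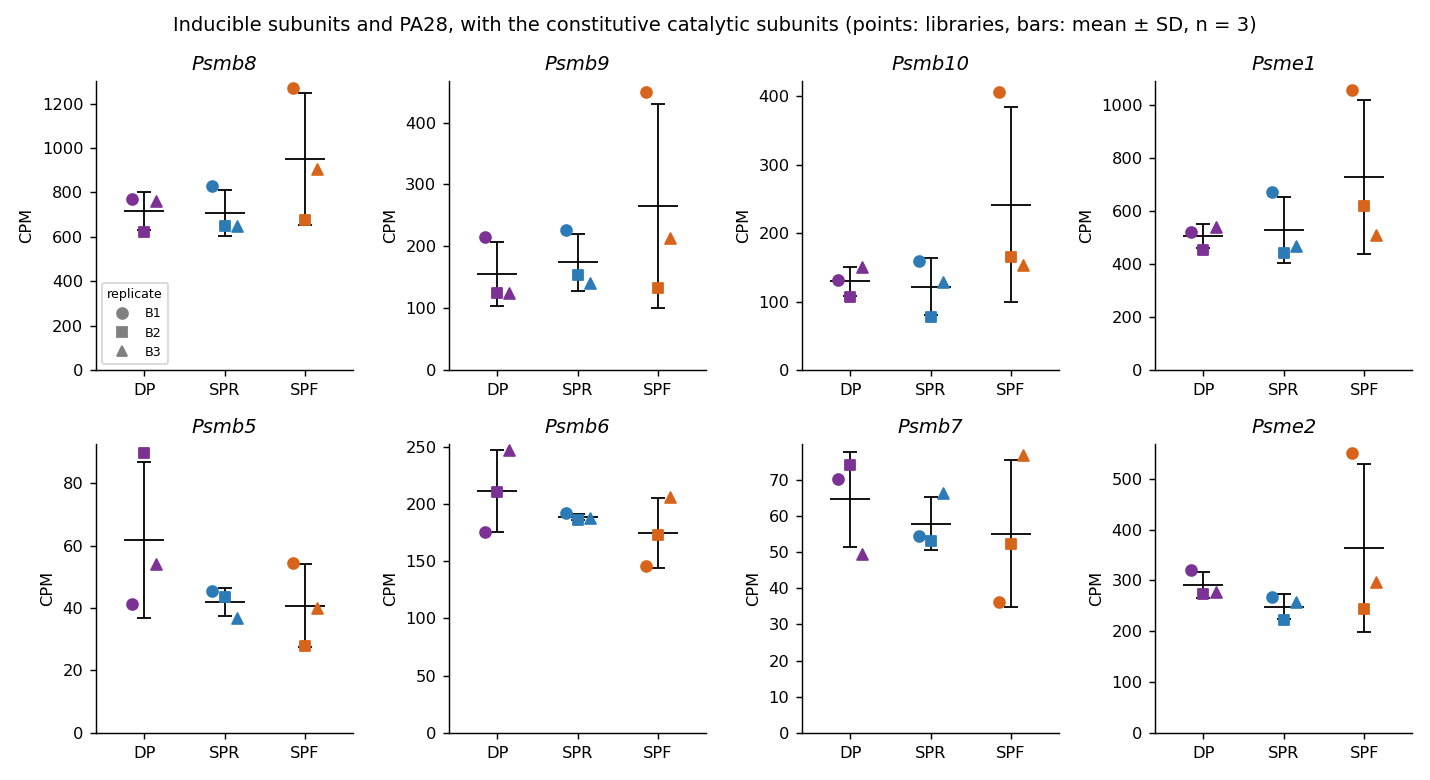
CPM (vertical axes) of the 5 inducible genes and of Psmb5, Psmb6 and Psmb7 in the 9 libraries, by population from left to right DP, SPR and SPF, with symbols for the replicate number and bars for the mean ± SD (n = 3). SPF replicate 1 stands highest for all 5 inducible genes, for instance at 406 CPM for Psmb10, and of its population for Psmb5, at 54.4 CPM, and lowest of its population for Psmb6 and Psmb7.

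Leaving out SPF replicate 1 brought the inducible genes closer to 0. In DP over SPF the log2 fold changes were then -0.23 for Psmb8, -0.25 for Psmb9, -0.39 for Psmb10, -0.25 for Psme1 and 0.02 for Psme2. In SPR over SPF they were -0.20, -0.03, -0.42, -0.14 and -0.16. None of these passed the test. With SPF replicate 3 left out, Psmb10 passed it in DP over SPF (-1.21, adjusted p = 0.043) and in SPR over SPF (-1.25, adjusted p = 0.034), and Psme1 in DP over SPF (-0.81, adjusted p = 0.047).

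The ratio of each inducible subunit to the one it replaces was formed from the counts of the same library. These ratios compare libraries with each other and are not molar ratios, since 3′ counts of different genes are not on one scale. Psmb8 over Psmb5 was 18.7, 6.93 and 14.0 in DP, 18.2, 15.0 and 17.6 in SPR, and 23.3, 24.3 and 22.7 in SPF. All SPF libraries lay above all DP and SPR libraries in this ratio, with means of 13.2 ± 5.94 in DP, 16.9 ± 1.76 in SPR and 23.4 ± 0.815 in SPF (SD, n = 3 each). The two-sided exact permutation test gave p = 0.1 for DP against SPF and for SPR against SPF, the smallest value that 3 against 3 libraries allow, and 0.45 after Benjamini-Hochberg adjustment over the 9 ratio tests. DP and SPR overlapped (exact permutation p = 0.5).

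Psmb9 over Psmb6 was 1.22, 0.60 and 0.50 in DP, 1.18, 0.83 and 0.75 in SPR, and 3.09, 0.768 and 1.04 in SPF. Psmb10 over Psmb7 was 1.87, 1.45 and 3.04 in DP, 2.94, 1.46 and 1.95 in SPR, and 11.2, 3.16 and 2.01 in SPF. Both ratios were highest in SPF replicate 1, and the populations overlapped otherwise. The exact permutation p for DP against SPF was 0.4 for the β1i/β1 ratio and 0.2 for the β2i/β2 ratio, and for SPR against SPF it was 0.6 and 0.2.

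Summed over the sets, the 5 inducible genes had 1961, 1581 and 1853 CPM in DP, 2151, 1545 and 1645 CPM in SPR, and 3731, 1838 and 2080.0 CPM in SPF. The 43 constitutive members summed to 5141, 5886 and 5255 CPM in DP, 4939.68, 5173 and 4771 CPM in SPR, and 4686, 4582 and 4998 CPM in SPF. The constitutive sums thus lay between 4582 and 5886 CPM in all libraries, while the inducible sum of SPF replicate 1 stood far above the others. The inducible sum over the constitutive sum was 0.381, 0.269 and 0.353 in DP, 0.435, 0.299 and 0.345 in SPR, and 0.796, 0.401 and 0.416 in SPF.

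**Figure D2:**
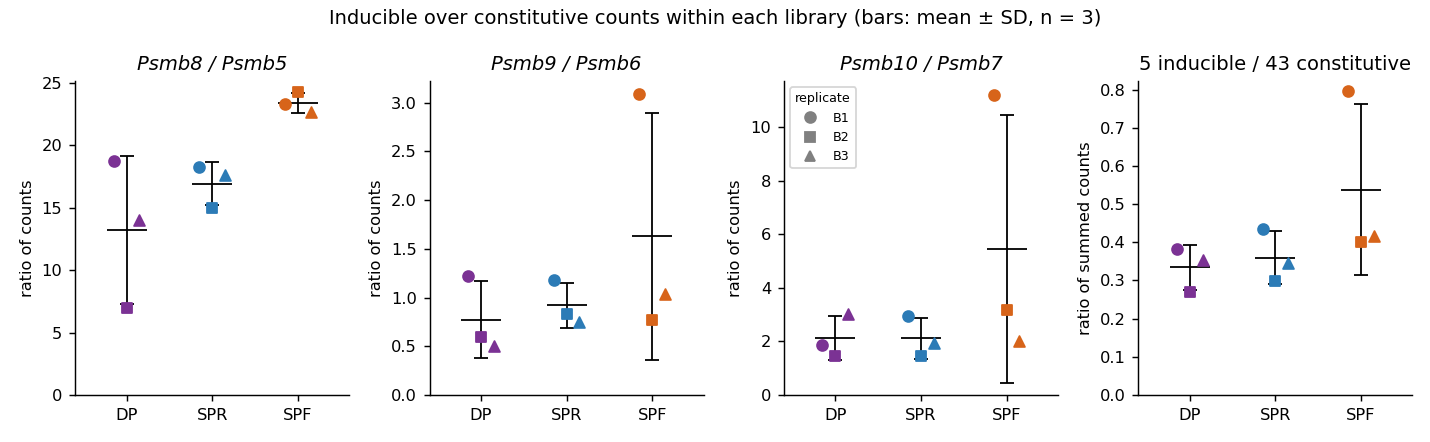
Ratio of counts (vertical axes, from 0) of Psmb8 to Psmb5, Psmb9 to Psmb6, Psmb10 to Psmb7 and of the summed inducible to the summed constitutive genes, for the DP, SPR and SPF libraries from left to right, with symbols for the replicate number and bars for the mean ± SD (n = 3). Psmb8 over Psmb5 lies at 22.7 to 24.3 in SPF, above the DP and SPR values, while the other catalytic ratios overlap apart from SPF replicate 1.

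DP and SPR cells, which came out of the same culture condition, did not differ detectably in the inducible genes. DP and SPR libraries of the same B number were compared as pairs. The log2 ratio of DP to SPR (CPM + 1) in pairs 1, 2 and 3 was -0.10, -0.07 and 0.23 for Psmb8, -0.08, -0.29 and -0.18 for Psmb9, and -0.28, 0.47 and 0.22 for Psmb10. It was -0.36, 0.04 and 0.20 for Psme1 and 0.27, 0.31 and 0.11 for Psme2. Only Psmb9 and Psme2 kept one sign, Psmb9 lower and Psme2 higher in DP in all 3 pairs, and neither passed the test. With the replicate number as a block, the 95% intervals of the fold change were -0.33 to 0.28 for Psmb8, -0.52 to 0.06 for Psmb9, -0.27 to 0.44 for Psmb10, -0.42 to 0.24 for Psme1 and -0.11 to 0.47 for Psme2. Differences within those intervals remain compatible with these 3 pairs.

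In the pairs, the inducible genes were higher in DP in 1, 3 and 4 of 5, with medians of -0.10, 0.04 and 0.20. The 41 constitutive members that passed the filter were higher in DP in 27, 28 and 23, with medians of 0.08, 0.22 and 0.10. Over all genes tested the DP library was higher in 57.4, 52.7 and 52% in pairs 1, 2 and 3. The α ring was higher in DP in 7 of 7 genes in pairs 1 and 2, and in 2 of 7 in pair 3. Higher in DP in every pair were 11 of the 48 members, against 21.7% of all genes tested: Psma4, Psma7, Psmb3, Psmc1, Psmc2, Psmc3, Psmd2, Psmd6, Psmd8, Psme2 and Psme4. Lower in every pair, against 15.3% of all genes, were 3 of the 48, Psmb1, a non-catalytic β subunit, Psmb9, and Psmg3, an assembly chaperone.

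**Figure D3:**
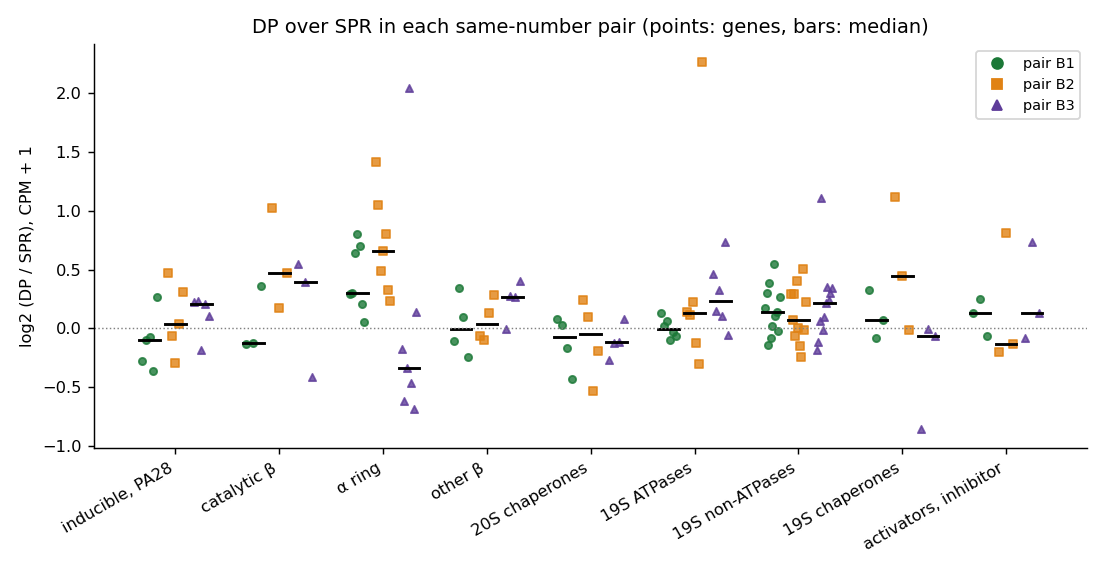
Log2 ratio of DP to SPR (CPM + 1, vertical axis) for the inducible and constitutive genes tested, by class from left to right, with a symbol for each pair of libraries (B numbers 1, 2 and 3) and bars for the medians. The inducible genes change sides between pairs, with medians of -0.10, 0.04 and 0.20, around a line at 0.

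Of the 48 members, 2 passed the test in DP over SPF and 2 in SPR over SPF, all higher, and they were the same genes, Psmd7 and Psmg2. The share of all tested genes called was 13.7% in DP over SPF (7.55% higher and 6.18% lower) and 16.7% in SPR over SPF (9.14% higher and 7.58% lower). The share of the 48 members called was not above these in either comparison. At an unadjusted p under 0.05 there were 10 of 48 members in DP over SPF, against 30.4% of all genes, and 4 of 48 in SPR over SPF, against 32.1%. In DP over SPR no member was called by edgeR across the 9 libraries, where 0.0107% of all genes were called, the single one being Foxp3. Of the 48 members 2, Psma4 and Psme4, had an unadjusted p under 0.05 there, against 6.57% of all genes, and DESeq2 called no member. With the replicate block, 3.48% of all genes (1.97% higher, 1.51% lower) and 1 member, Psma4, were called, and 3 of 48 members had an unadjusted p under 0.05, against 15.8% of all genes.

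Without the low-count filter the calls changed. This fit took in all of the 52 members but Psmb11 and Psmb6-ps, which had no counts in any library. In DP over SPF 10 members were then called, against 10.7% of 20041 genes: Psma1, Psma3, Psma4, Psmc6, Psmd1, Psme4 and Psmg2 higher, and Psmb9, Psmb10 and Psme2b lower. There were 5 in SPR over SPF, against 12.4%: Psmc6 and Psmg2 higher, and Psmb9, Psmb10 and Psme2b lower. In DP over SPR Psma4 was called higher, against 1.05%. Psmd7 was not called without the filter. In this setting the share of members called was above that of all genes in DP over SPF and below it in SPR over SPF.

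Psmd7, the Rpn8 subunit that carries the deubiquitinase Rpn11 in the lid of the regulatory particle, rose in both Th17-culture populations against SPF. Psmd7 had 143, 147 and 157 CPM in DP, 146, 148 and 127 CPM in SPR, and 104, 94.4 and 87.4 CPM in SPF. All DP and SPR libraries lay above all SPF libraries. The log2 fold change was 0.57 ± 0.15 (0.24 to 0.90, adjusted p = 0.0296) in DP over SPF and 0.53 ± 0.15 (0.21 to 0.86, adjusted p = 0.0319) in SPR over SPF, and 0.04 (-0.29 to 0.36) in DP over SPR. Psmd7 passed the threshold in 9 of 18 alternatives for DP (adjusted p 0.0086 to 0.131) and in 10 of 18 for SPR (0.0108 to 0.162), with a positive fold change in all of them. In DP over SPF the call was lost without DP replicate 2 (0.59), DP replicate 3 (0.51), SPR replicate 1 (0.57), SPF replicate 2 (0.58) or SPF replicate 3 (0.50). In SPR over SPF it was lost without any one SPR library (0.50 to 0.58), SPF replicate 2 (0.54) or SPF replicate 3 (0.46).

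Psmg2, known as PAC2, pairs with Psmg1 to guide assembly of the α ring and was also higher in both. It had 47.96, 65.8 and 48.8 CPM in DP, 47.1, 61.6 and 53.2 CPM in SPR, and 22.7, 29.8 and 34.4 CPM in SPF, again without overlap. The log2 fold change was 0.83 ± 0.22 (0.36 to 1.31, adjusted p = 0.0288) in DP over SPF and 0.87 ± 0.21 (0.40 to 1.34, adjusted p = 0.0181) in SPR over SPF, and -0.04 in DP over SPR. Psmg2 passed the threshold in 11 of 18 alternatives for DP (adjusted p 0.0107 to 0.124) and in 13 of 18 for SPR (0.00496 to 0.0935). In DP over SPF the call was lost without DP replicate 2 (0.67), DP replicate 3 (0.88), SPF replicate 1 (0.67) or SPF replicate 2 (0.87), and in SPR over SPF without SPR replicate 2 (0.78), SPR replicate 3 (0.86), SPF replicate 1 (0.71) or SPF replicate 2 (0.90). As with Psmd7, the size of the change moved little and the adjusted p crossed the threshold.

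Psma4, an α ring subunit, was the member called between DP and SPR with the block. It had 9.26, 13.5 and 41.5 CPM in DP, 4.88, 8.18 and 9.31 CPM in SPR, and 13.6, 5.12 and 8.83 CPM in SPF, from 117 summed counts in DP, 68 in SPR and 60 in SPF. The DP mean was set by DP replicate 3, although DP was above SPR in each pair (log2 ratios of 0.80, 0.66 and 2.04). The blocked log2 fold change was 1.34 ± 0.33 (0.62 to 2.07, adjusted p = 0.0478, higher in 3 of 3 pairs), and without the block it was 1.43 ± 0.57 (0.18 to 2.67, adjusted p = 0.694). The call held in 3 of 7 alternatives of the blocked fit, with adjusted p from 0.000119 to 0.574. It was lost without replicate 1 (1.52) and without replicate 3 (0.76), and the gene overlaps AY074887 on the opposite strand.

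Without a test, the CPM of 9 members did not overlap and were higher in DP than in SPF (Psma7, Psmc1, Psmc5, Psmd3, Psmd6, Psmd7, Psmd12, Psme4 and Psmg2), against 19.2% of all genes, and those of 3 were lower (Psmb1, Psmb10 and Psmg3), against 12.3%. In SPR, 6 members lay above SPF (Psma7, Psmc5, Psmd1, Psmd7, Psmd12 and Psmg2), against 19.9%, and 3 below it (Psmb1, Psmc3 and Psme2b), against 17.1%. Between DP and SPR, 4 were higher in DP (Psmc3, Psmd8, Psme2 and Psme4), against 9.04%, and Psmg3 alone was lower, against 5.41%. As shares of 48 members these counts were close to the shares over all genes for higher values in DP than in SPF and in DP than in SPR, and below them in the others.

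**Figure D4:**
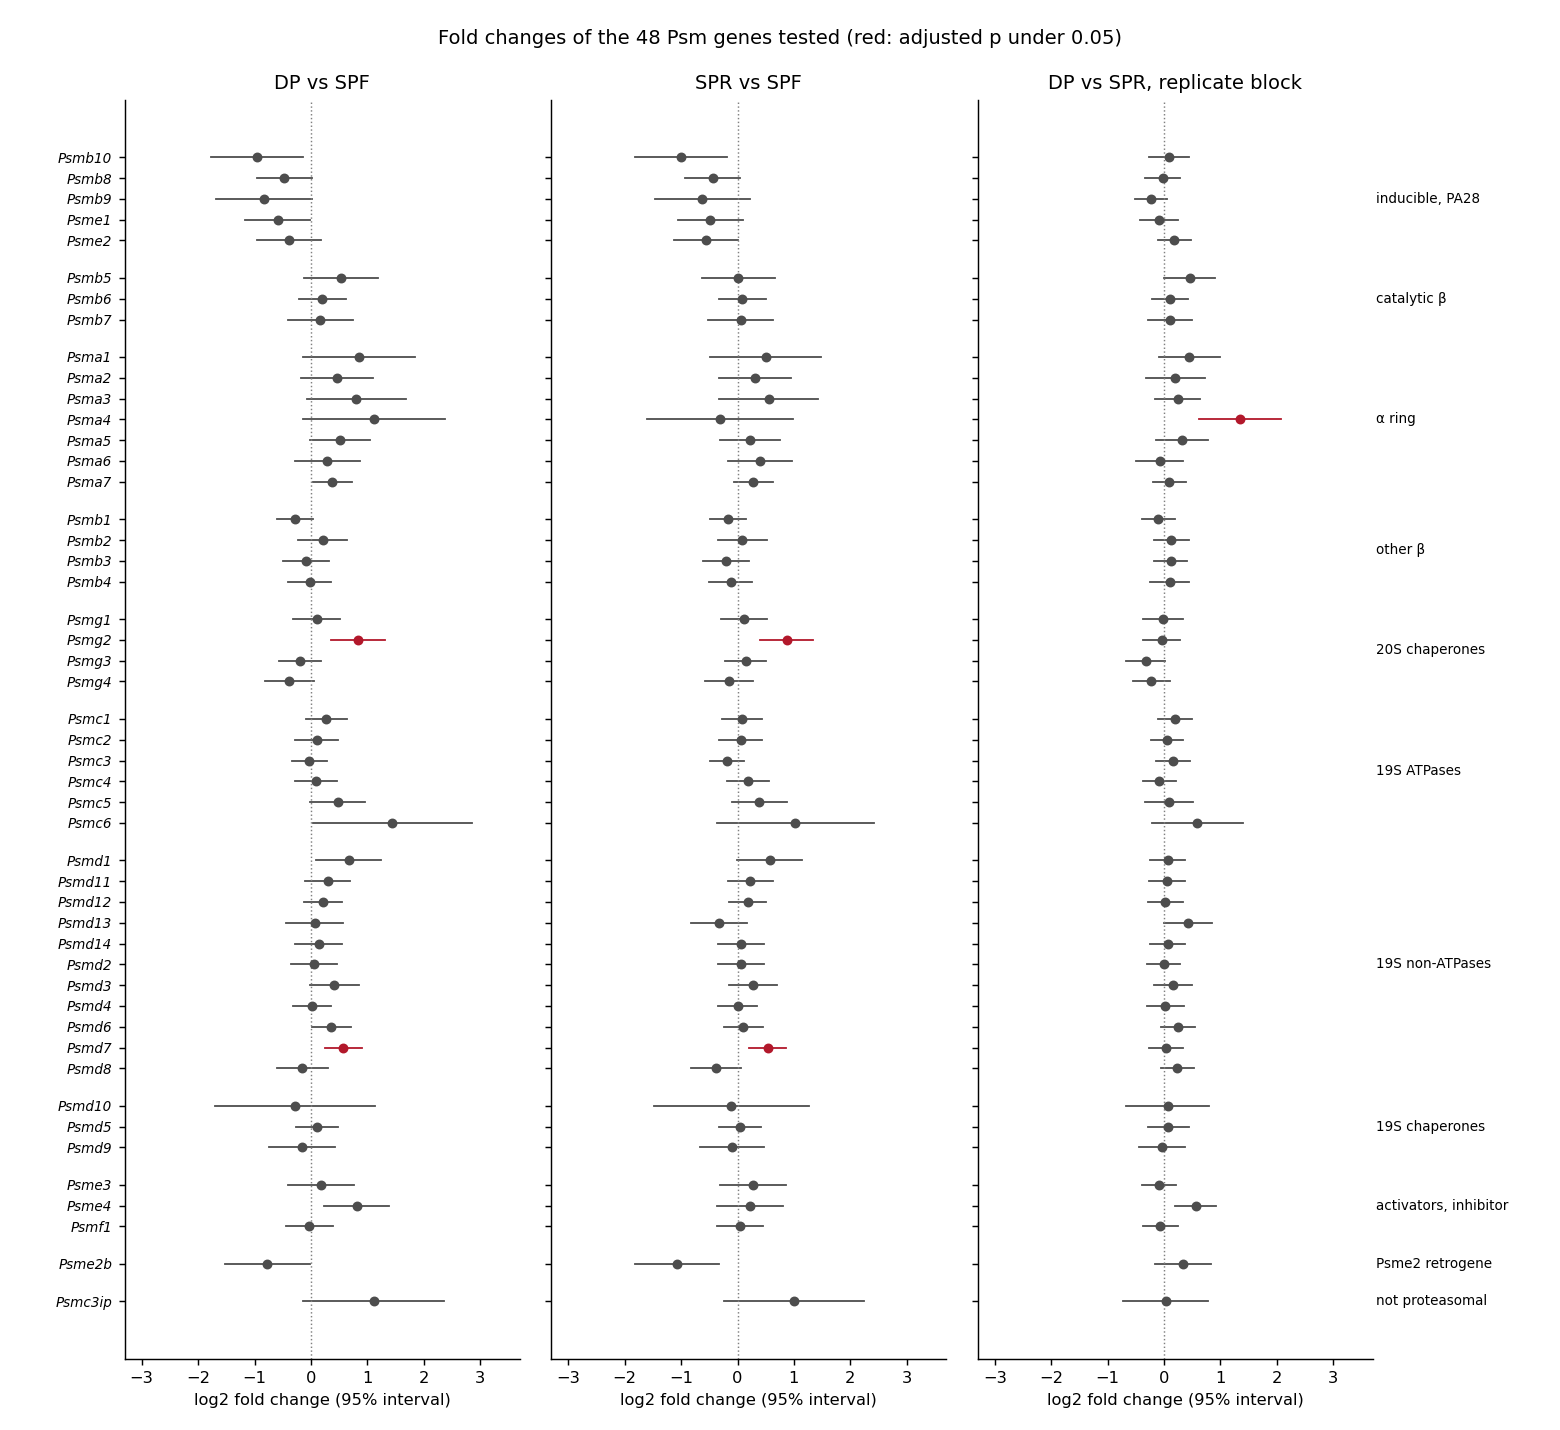
Log2 fold changes with 95% intervals of the 48 Psm genes tested, grouped by their place in the complex, in DP over SPF, SPR over SPF and, with the replicate block, DP over SPR (horizontal axes, 0 marked, red where the adjusted p was under 0.05). The 5 inducible genes lie below 0 against SPF, at -0.39 to -0.96 in DP, with the α ring above 0 in DP over SPF, and Psmd7 and Psmg2 are the members called against SPF and Psma4 the one called between DP and SPR.

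By place in the complex, the α ring had the highest median in DP over SPF, 0.52, with 7 of 7 genes above 0. The same genes had a median of 0.30 in SPR over SPF, with 6 of 7 above 0, and of 0.25 in DP over SPR. No α ring gene was called in the fit of all 9 libraries, and Psma4 alone was called in DP over SPR with the block. The spread within populations was wide for some of them. Psma1 had 37.9, 71.5 and 62.9 CPM in DP, 30.7, 26.3 and 71.0 CPM in SPR and 26.8, 16.7 and 47.4 CPM in SPF, and Psma2 had 214, 262 and 162 CPM in DP, 173, 126 and 249 CPM in SPR and 152, 101 and 188 CPM in SPF. The populations overlapped in both.

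The ATPase ring (Psmc1 to Psmc6) had medians of 0.19 in DP over SPF, 0.13 in SPR over SPF and 0.12 in DP over SPR, with 5 of 6 above 0 in each. Among them Psmc6 had the highest fold changes of all members against SPF, 1.44 (0.03 to 2.86, adjusted p = 0.156) in DP and 1.03 (-0.37 to 2.42, adjusted p = 0.294) in SPR. Its values were uneven: 12.6, 36.8 and 40.8 CPM in DP, 13.3, 6.89 and 42.6 CPM in SPR and 10.9, 7.44 and 13.0 CPM in SPF. Without SPR replicate 3 the fold change in SPR over SPF was -0.078. The 11 non-ATPase subunits had medians of 0.21, 0.10 and 0.08, with 10, 9 and 10 of 11 above 0. The non-catalytic β subunits had medians of -0.05, -0.15 and 0.11.

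The core chaperones (Psmg1 to Psmg4) had medians of -0.04, 0.13 and -0.13 in these comparisons, with Psmg2 going apart from Psmg3. Psmg3 had 47.1, 48.6 and 47.5 CPM in DP, 53.0, 70.6 and 51.6 CPM in SPR and 52.6, 53.0 and 49.7 CPM in SPF. It had the lowest fold change of all members in DP over SPR, -0.34 (-0.70 to 0.03, adjusted p = 0.783). The chaperones of the regulatory particle, Psmd5, Psmd9 and Psmd10, had medians of -0.15, -0.10 and -0.05. Among the other activators and the inhibitor, whose medians were 0.18, 0.22 and -0.07, Psme4 (PA200, a nuclear activator) had 55.1, 86.6 and 56.9 CPM in DP, 46.1, 49.1 and 33.8 CPM in SPR and 49.5, 25.6 and 33.5 CPM in SPF. Its fold change in DP over SPF was 0.81 (0.23 to 1.39, adjusted p = 0.0674). Over all 48 members the median was 0.15 in DP over SPF, 0.07 in SPR over SPF and 0.09 in DP over SPR, against 0.01, 0.0010 and -0.01 over all genes.

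The inducible genes also varied together within the populations. Replicate 1 was the highest library of its population for all 5 genes in SPR and in SPF, and in all 3 populations for Psmb8, Psmb9 and Psme2. Set against the mean of the other libraries of the same population, replicate 1 had a median log2 difference over the 5 genes of 0.16 in DP, 0.55 in SPR and 1.03 in SPF, with 5 of 5 above 0 in each. For the 41 constitutive members these medians were -0.12, -0.09 and -0.03, and for all genes 0.04, -0.0039 and 0.01. No constitutive member had replicate 1 highest in all 3 populations, as 8.13% of all genes did.

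The 17 genes of MHC class I antigen processing also had positive replicate 1 medians, 0.35 in DP, 0.04 in SPR and 1.15 in SPF, and so did 21 genes of the interferon γ and IRF1 response, with 0.70, 0.53 and 2.08. Replicate 1 was highest in all 3 populations for 9 of the 17 and 12 of the 21. Irf1, a factor known to act on the shared start region of Psmb9 and Tap1 in other cells, had 159, 44.95 and 68.2 CPM in DP, 139, 61.6 and 78.2 CPM in SPR and 683, 114 and 101 CPM in SPF. SPF replicate 1 was above all other libraries for Irf1. In that library the summed B cell list was also highest, at 1569 CPM, of which Ighm gave 1498 CPM, while Cd79b was higher in SPF replicate 2 and the summed CD8 and NK list lay below all 3 DP libraries. The labels give no date or processing batch for the B numbers, and what replicate 1 shared was not tested.

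As a description of likeness, the deviations from the population mean of log2(CPM + 1) of the 5 genes had a median pairwise Pearson r of 0.84 (10 pairs of genes, 0.72 to 0.93) over the 9 libraries, which the genes share. The median r was 0.53 without SPF replicate 1, 0.73 over the 6 DP and SPR libraries, and 0.33 (-0.77 to 0.80) with all replicate 1 libraries left out. Among 39 constitutive members with a mean of at least 20 CPM the corresponding medians over 741 pairs were 0.15, 0.18, 0.22 and 0.21. Between inducible and constitutive genes the median over the 9 libraries was -0.12. The likeness of the inducible genes thus rested to a large extent on replicate 1. Its median was above that of constitutive members in each of the 4 sets of libraries, which overlap and are not repeated support. Without replicate 1 the remaining deviations of a population mirror each other. Each r then rests on few values and ran from -0.996 to 0.999 among constitutive members.

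**Figure D5:**
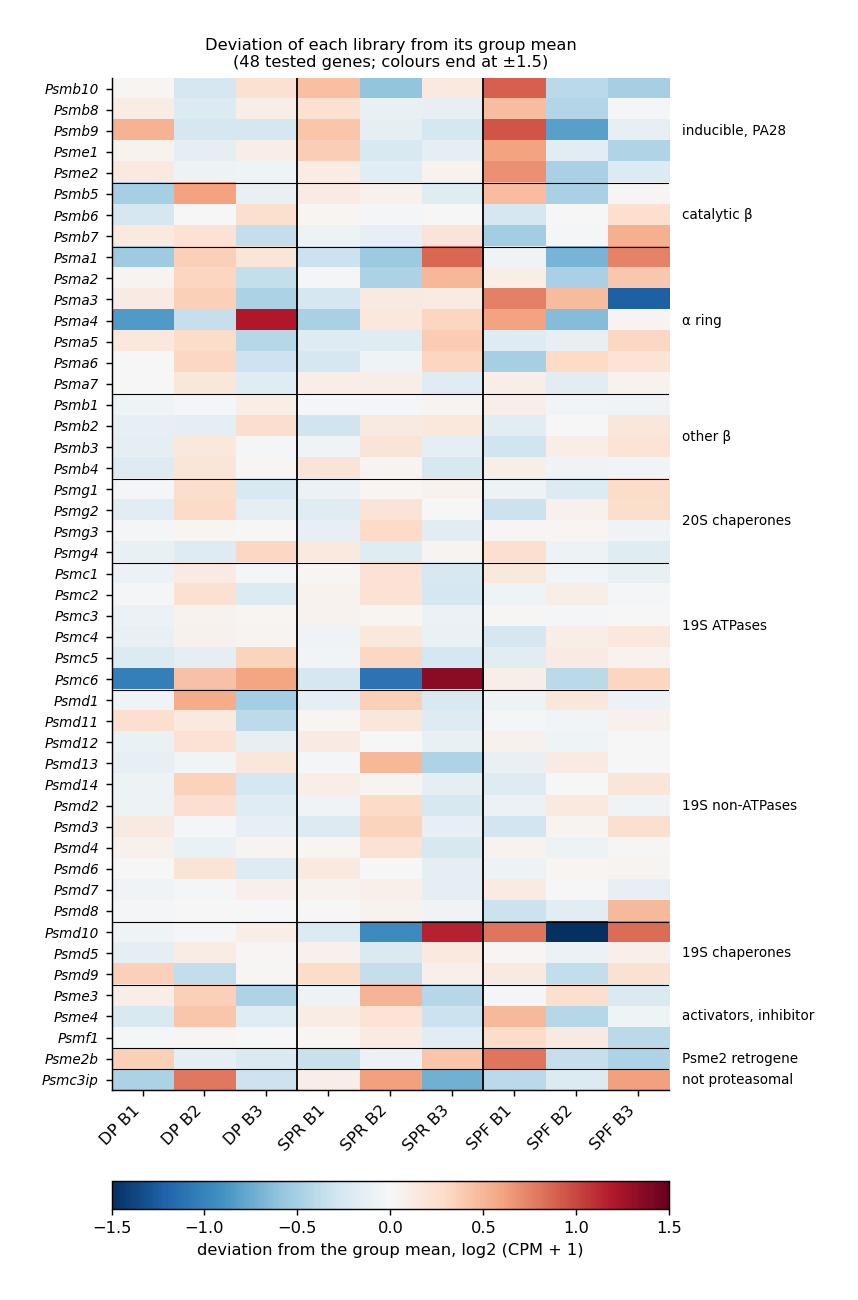
Deviation of log2(CPM + 1) from the mean of its population for each member (rows, inducible genes at the top) in the 9 libraries (columns, DP, SPR and SPF from left to right), with the colour scale in log2 units. The inducible genes are raised together in SPF replicate 1 and, less, in SPR replicate 1, where the constitutive genes have replicate 1 medians of -0.03 and -0.09.

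The within-population SD of log2(CPM + 1) had a median of 0.239 over the 45 members with a mean of at least 20 CPM, against 0.261 over 6344 genes above the same level. The most variable members were Psmd10 (1.03), Psmc6 (0.914), Psma4 (0.757), Psma3 (0.680) and Psma1 (0.664), among them genes with few counts. Psmd10, or gankyrin, had 14.7, 15.1 and 16.7 CPM in DP, 11.5, 6.46 and 31.1 CPM in SPR and 25.0, 3.72 and 25.6 CPM in SPF. The least variable were Psmc3 (0.0640), Psmb1 (0.0694) and Psmd7 (0.106).

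Genes around the proteasome were read from lists of cofactors and ubiquitin genes, antigen processing and interferon response. Of 25 cofactor and ubiquitin genes tested, 3 were higher in DP than in SPF (7.55% of all genes) and 3 in SPR than in SPF (9.14% of all genes), the same 3 genes, and none was lower. They were Uba1, the main ubiquitin-activating enzyme, Ddi2, the protease that activates the proteasome gene regulator NRF1, and Uchl5, a deubiquitinase of the regulatory particle. Uba1 had 675, 657 and 544 CPM in DP, 666, 935 and 507 CPM in SPR and 255, 301 and 302 CPM in SPF (log2 fold change 1.05, adjusted p = 0.0115, in DP and 1.27, adjusted p = 0.00333, in SPR). Ddi2 had 109, 101 and 106 CPM in DP, 123, 89.5 and 123 CPM in SPR and 59.4, 62.8 and 48.3 CPM in SPF (0.81, adjusted p = 0.0168, and 0.95, adjusted p = 0.0056). Uchl5 had 86.2, 115 and 70.9 CPM in DP, 82.0, 90.4 and 67.0 CPM in SPR and 40.4, 43.3 and 47.9 CPM in SPF (0.98, adjusted p = 0.0109, and 0.84, adjusted p = 0.0161). All DP and SPR libraries lay above all SPF libraries for these 3 genes. With 1 library left out, the only calls lost were those of Uchl5 in SPR over SPF without SPR replicate 2 (0.75), SPF replicate 1 (0.77) or SPF replicate 2 (0.84). Nfe2l1 (NRF1) and Nfe2l2 (NRF2) themselves were not called in either comparison, with log2 fold changes of -0.39 and 0.31 in DP and -0.05 and 0.44 in SPR.

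Of the 17 antigen processing genes tested, Tap2, the partner of Tap1 in the peptide transporter, was the 1 gene lower in DP (6.18% of all genes) and in SPR (7.58% of all genes) than in SPF. It had 145, 114 and 130.4 CPM in DP, 129, 128 and 123 CPM in SPR and 217, 209 and 248 CPM in SPF, without overlap. The log2 fold change was -0.86 (adjusted p = 0.00534) in DP over SPF and -0.84 (adjusted p = 0.00394) in SPR over SPF, and Tap2 passed the threshold in 18 of 18 alternatives of each. Unlike the inducible proteasome genes beside it on chromosome 17, Tap2 was not raised in SPF replicate 1. Tap1 had 351, 209.6 and 211 CPM in DP, 379, 213 and 266 CPM in SPR and 686, 176 and 286 CPM in SPF, with replicate 1 highest in each. Canx, a chaperone of MHC class I folding, was the other gene called, at 0.94 (adjusted p = 0.0404) in DP over SPF, a call that was lost without any one of 6 libraries (0.71 to 0.97). The median of this list was -0.38 in both comparisons with SPF.

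Of the 21 interferon response genes tested, 1 was lower in DP and 1 in SPR than in SPF, against 6.18 and 7.58% of all genes, and 1 was higher in DP than in SPF, against 7.55%. Irf7 was the lower one in both (-1.97, adjusted p = 0.0385, in DP and -1.94, adjusted p = 0.0303, in SPR), and Gbp2 the higher one (3.67, adjusted p = 0.0232). The call of Irf7 was lost without SPF replicate 1 (-1.30 in DP and -1.27 in SPR) and without any one of 5 other libraries in DP and 3 in SPR. That of Gbp2 was lost without DP replicate 1 (3.10) or SPF replicate 2 (3.19), and held in 16 of 18 alternatives, while its fold change was 5.75 without SPF replicate 1 and 4.01 without DP replicate 2. The medians of the list were -0.23 in DP over SPF and -0.76 in SPR over SPF. Between DP and SPR with the block, 4 of the 21 were higher in DP, against 1.97% of all genes. Gbp2 (1.58, adjusted p = 0.000171), Gbp3 (1.28, adjusted p = 0.00155), Gbp7 (1.64, adjusted p = 0.0204) and Ifngr1 (0.62, adjusted p = 0.0321) were these, and in the antigen processing list H2-Q7 was lower, against 1.51% of all genes (-0.64, adjusted p = 0.0355). None of these 5 passed without the block, and Gbp7 (1.76 and 1.92), Ifngr1 (0.61 and 0.55) and H2-Q7 (-0.79 and -0.59) were lost without replicate 1 or without replicate 3. Gbp2, an interferon-induced GTPase, had 1894, 543 and 938 CPM in DP, 577, 171 and 335 CPM in SPR and 215, 18.1 and 20.9 CPM in SPF. In the same pairs of libraries the 5 inducible proteasome genes had blocked fold changes of -0.23 to 0.18, none of them called.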

How the data were processed

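Libraries were made by MARS-seq, and per the labels and the submitters' processing notes reads were handled with cutadapt, STAR, SAMtools and HTSeq on mm10. No source used here gives versions, annotation, the handling of molecular identifiers or the strand setting. The deposited values are raw read counts per gene. From the table, 1 unnamed total line and 1 unnamed column of no sample were left out. CPM was formed by column total.

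The 9310 genes with over 10 CPM in 1 or more libraries entered edgeR 4.0.16 (R 4.3.3), with TMM factors and the quasi-likelihood test over all 9 libraries, and p-values were Benjamini-Hochberg adjusted over all of them, called under 0.05. DP and SPR were also fitted alone with replicate number as a block, a fit added after the data were seen. Same-number deviations correlated by 0.222, 0.401 and 0.407, and both were sorted from the same culture condition. The labels do not say whether DP and SPR of one number came from one culture. Same-number deviations of SPF libraries correlated with those of DP and SPR by only -0.151 to 0.124, and SPF was not treated as paired in the fits reported. Alternatives used DESeq2 1.42.0, other scalings, filters, blocks and left-out libraries. P-values set the differences between populations against the spread between these libraries, whose mice the labels do not name. Ratios were compared by two-sided exact permutation tests.

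Some single genes are not reported here. Named were the inducible genes, their counterparts, members called in the 9-library or the blocked fit, members failing the filter and the members of highest and lowest fold change. Other members named for their spread, for not overlapping or for a class were chosen after their values were seen. The members and lists were chosen with earlier results of these data known.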

Additional observations from a re-analysis of the deposited data

How the results depend on the processing

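Over all genes in DP over SPF, 1278 of 9310 were called. Other settings gave 2137 with no low-count filter, 828 with a fold above 2 required and 1410 with the block over 9 libraries. Fits of these groups alone gave 856 without the block and 431 with it. There were 323 with all replicate 1 libraries left out (a setting chosen after seeing the data) and 551 to 1818 with 1 library left out. In SPR over SPF, 1557 were called, against 1829 by DESeq2, 2479 with no filter and 1048 with a fold above 2 required. The block gave 1769 over 9 libraries and 1022 in these groups alone. There were 644 without replicate 1 libraries and 827 to 2054 with 1 left out. In DP over SPR, 1 gene was called, against 44 by DESeq2, 4 with library totals alone, 211 with no filter, 2 in the fit of these groups alone, 7 with the block over 9 libraries, 324 with the block in these groups alone, 3 without replicate 1 libraries and 1 to 6 with 1 left out. For the blocked fit the 324 became 147 by DESeq2, 2 without the block and 75 to 430 with 1 number left out. Members called in DP over SPF (2) became 10 with no filter, 4 with the block over 9 libraries, 0 with a fold above 2, in the fits of these groups alone with and without the block or without replicate 1 libraries, and 0 to 3 with 1 left out (0 without DP replicate 2, DP replicate 3 or SPF replicate 2, 1 without SPR replicate 1). In SPR over SPF (2) they became 4 by DESeq2, 5 with no filter, 4 and 1 with the block over 9 libraries and over these groups alone, 0 with a fold above 2 or without replicate 1 libraries, and 0 to 3 with 1 left out (0 without SPR replicate 2 or SPF replicate 2, 1 without SPR replicate 1, SPR replicate 3 or SPF replicate 1). In DP over SPR (0) they became 1 with no filter and 1 with the block. In the blocked fit (1) they became 0 by DESeq2 or without the block and 0 to 2 with 1 number left out (0 without replicate 1 or 3, and Psma4 with Psmd13 at 0.70 without replicate 2). The labels do not say what SPF libraries share with DP and SPR libraries of the same number. Block values against SPF therefore cannot show whether an effect was weaker.

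Among the named genes and the settings run, direction changed only for genes not called in the comparison as reported. In SPR over SPF, without replicate 1 libraries Nlrc5 stood at 0.51, Psmb6 at -0.061 and Psmb7 at -0.15. With 1 library left out the ranges were -0.19 to 0.26 for Psmb5, -0.041 to 0.20 for Psmb6, -0.18 to 0.35 for Psmb7, -0.078 to 1.43 for Psmc6, -0.21 to 0.10 for Nfe2l1 and -1.04 to 0.63 for Nlrc5. In DP over SPF, without replicate 1 libraries Nlrc5 stood at 0.15 and Psmb7 at -0.12. With 1 left out the ranges were -0.60 to 0.018 for Psme2, -0.076 to 0.46 for Psmb7 and -1.14 to 0.52 for Nlrc5. In DP over SPR, Psmb8 stood at 0.019 with library totals alone, at 0.021 with them in the blocked fit, and without replicate 1 libraries it stood at 0.067, with Psme1 at 0.10. With 1 left out the ranges were -0.094 to 0.088 for Psmb8, -0.51 to 0.0076 for Psmb9, -0.22 to 0.090 for Psme1, -0.21 to 0.26 for Psmb10 and -0.035 to 0.24 for Psmb6. In the blocked fit they were -0.14 to 0.057 for Psmb8, -0.22 to 0.095 for Psme1, -0.085 to 0.32 for Psmb10, -0.053 to 0.37 for Psmb7 and -0.029 to 0.26 for Psmb6. The highest counts of calls with 1 library left out came without SPF replicate 3 in both comparisons with SPF. The cause of these shifts was not tested.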
